A study of Mus musculus with 24 samples.

Results

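The nuclear genes for the subunits of oxidative phosphorylation (OXPHOS) were followed across 4 mouse tissues at 2 ages. They were taken by symbol: the Nduf genes of complex I, the Sdh genes of complex II, the Uqcr genes and Cyc1 of complex III, the Cox4 to Cox8 genes of complex IV and the Atp5 genes of complex V, without the muscle and brown fat isoforms Cox7a1 and Cox8b. Of 81 such symbols in the RefSeq gene table, 78 had a probe on the array, out of 22911 genes that could be named there, and Cox5b, Ndufb1 and Cox6c2 had none that could be named. These 78 genes had 98 probes, and each gene is represented by its brightest probe. In each tissue 77 of the 78 were tested, the exception being Cox8c, and 75 were well above background on all 24 arrays. No probe was named for a subunit encoded by mitochondrial DNA.

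The samples were white adipose tissue (WAT), kidney, liver and lung from male C57BL/6J mice, with no treatment or genetic change named in the labels, aged 10 weeks (young) or 90 weeks (aged), with 3 mice per age and tissue. Total RNA was hybridised to 1-colour Agilent arrays, and the study asked how tissues change with ageing. A level is given as the log2 of a probe's signal over the 75th percentile of its own array, so that a difference of 1 is a 2-fold difference, and a gene was called when its adjusted p in limma, over all genes tested in the tissue, was under 0.05. The array itself also carries spike-in controls, RNA added at fixed amounts, and every change was computed a second time with each array scaled to them. The markers of each labelled tissue were present in it: the summed level, in multiples of the 75th percentile, was 3549 or more for 8 hepatocyte markers in every liver, 632 or more for 8 tubule markers in every kidney, 1763 or more for 8 alveolar and airway markers in every lung and 712 or more for 8 adipocyte markers in every WAT sample.

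OXPHOS is the last stage of respiration in the inner mitochondrial membrane. Complexes I and II take electrons from NADH and succinate, complex III passes them on to cytochrome c, complex IV hands them to oxygen, and complex V, the ATP synthase, uses the proton gradient that results. Kidney tubules and hepatocytes are rich in mitochondria, white fat cells hold few, and several complex IV subunits have isoforms known from heart and skeletal muscle or from testis.

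Over the 75 genes measured on every array, the mean level in the kidney was between 6.52 and 6.63 in the 3 young mice and was 5.38, 5.52 and 5.71 in the aged mice. The liver means were 6.44, 6.43 and 6.21 at 10 weeks and 5.58, 5.35 and 5.98 at 90 weeks, in mice that the labels number 1, 2 and 4. The age groups did not overlap in either organ, and the aged livers were spread more widely than the aged kidneys (SD 0.32 against 0.16, n = 3). In the lung the values were 4.75, 4.71 and 4.65 in young and 4.39, 4.58 and 4.58 in aged mice, without overlap but with a small gap. In WAT they were 5.48, 5.54 and 5.39 in young and 5.17, 5.22 and 5.49 in aged mice, and the groups overlapped.

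**Figure D1:**
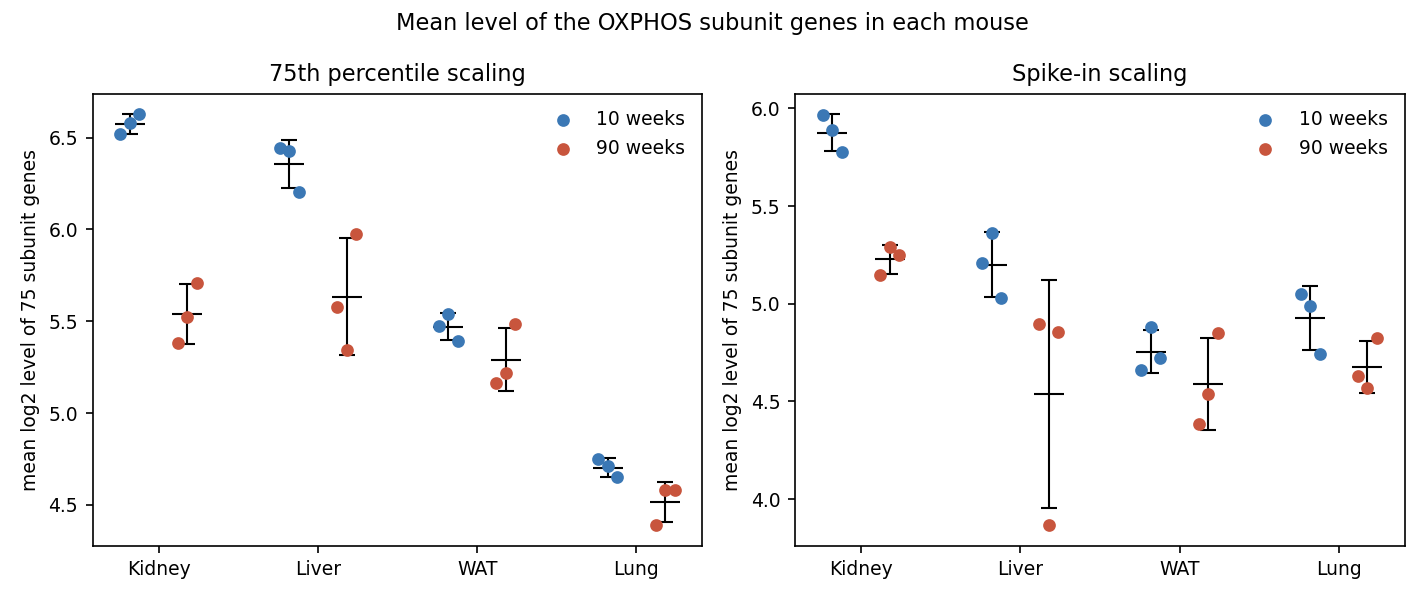
Mean log2 level of the 75 OXPHOS subunit genes measured on all arrays, in each mouse, scaled to the array's 75th percentile (left) or to the spike-in controls (right). Points are mice, and the black bars give the mean and SD of 3 mice per group. Kidney and liver fall with age in the left panel, and in the right panel the aged liver mouse numbered 2 lies at 3.87, below the other aged livers at 4.89 and 4.86.

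The order of the tissues was shared by most of the genes under the percentile scaling but not under spike-in scaling, where the most frequent order held for 32 of the 75 genes at 10 weeks and for 17 at 90 weeks. Under the percentile scaling at 10 weeks 52 of the 75 genes were highest in the kidney, then the liver, WAT and the lung, and 21 had liver first. At 90 weeks 50 of the 75 had liver first and kidney second, and the order of the young mice was left in 11. Every young kidney lay above every young liver for 36 genes and below it for 5, and these neighbours overlapped for the others. At 90 weeks the numbers were 2 and 10. Liver and WAT were clearly separated in the young mice, with every liver above every WAT sample for 70 genes, but in the aged mice for only 24. The kidney lay above WAT in the same way for 74 genes at 10 weeks and for 20 at 90 weeks. The lung was lowest for 73 of the 75 genes at both ages under this scaling. Under spike-in scaling the kidney was highest for 71 of the 75 genes at 10 weeks and for 69 at 90 weeks, and every kidney lay above every liver for 68 and 57 genes. The lowest tissue was then WAT for 37 genes and the lung for 32 at 10 weeks, and at 90 weeks the liver for 30, the lung for 24 and WAT for 21. The place of the kidney above WAT was common to both scalings in the young mice, with 74 genes separated in each, whereas the first place of the liver at 90 weeks and the last place of the lung were not. The orders and separations were counted for the subunit genes only, so they cannot be set against the share over all genes. The 6 arrays of a tissue share 1 slide, so tissue and slide cannot be told apart in these levels, while each comparison of ages lies within a slide.

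In the kidney of aged mice, 75 of the 77 genes tested were called lower and 1, Cox6b2, was called higher. Of all 31505 genes tested in the kidney, 42.6% were called lower and 20.6% higher, and of the 2657 genes in the level range of the subunit genes (the 5th to 95th percentile of their mean levels) 67.6% were called lower. The median change of the subunit genes was -1.04 on the log2 scale, against -0.23 over all genes and -0.50 over the genes of similar level. The changes lay close together, with quartiles of -1.12 and -0.98, and 48 genes were at least 2-fold lower. For 75 of the genes every aged mouse was below every young mouse, as was so for 47.6% of all genes. The fall ran through every complex: the median was -1.06 for the core subunits of complex I, -1.02 for its accessory subunits, -1.15 for complex II, -1.08 for complex III, -1.07 for complex IV and -0.98 for complex V.

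The spike-in controls put the falls in the kidney closer to 0, and most calls held. Under spike-in scaling 73 genes were called lower, where 14.3% of all genes were, and 1 was called higher, where 29.7% of all genes were. The median was then -0.66, against 0.15 over all genes. The calls lost were those of Atp5g2 (-0.36, adjusted p = 0.051), 1 of the 3 genes for the membrane c ring of ATP synthase, and Ndufa7 (-0.28, adjusted p = 0.14), an accessory subunit of complex I. With any 1 of the 6 mice left out, 75 genes were called lower under the percentile scaling. Under the spike-in scaling between 68 and 73 were, where 3177 to 4844 of all 31505 genes were.

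Complex I passes electrons from its flavin site to a chain of iron-sulfur clusters. Ndufs1, the largest subunit of that chain, had levels of 6.05, 6.16 and 6.24 in young and 4.60, 4.86 and 5.14 in aged kidneys, a change of -1.28 (SE 0.15, adjusted p = 0.000746). Every aged kidney lay well below the lowest of the young kidneys. Ndufv1, which binds the flavin, changed by -1.16, and Ndufs7, which holds the last cluster before ubiquinone, by -0.98, both called. Ndufa10, an accessory subunit, had a change of -1.30 (SE 0.13), the greatest fall among the complex I subunits, and Ndufa7 at -0.67 had the smallest. All 7 core and all 28 accessory subunits tested were called lower.

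Complex II is also an enzyme of the tricarboxylic acid cycle. Its iron-sulfur subunit Sdhb had levels of 7.48, 7.64 and 7.70 in young and 6.28, 6.36 and 6.61 in aged kidneys (-1.19, SE 0.12, adjusted p = 0.00047). The flavoprotein Sdha changed by -1.11 and the membrane anchors Sdhc and Sdhd by -1.18 and -1.05, so that the 4 subunits fell by similar amounts. In complex III the Rieske iron-sulfur protein Uqcrfs1 had levels of 6.19, 6.38 and 6.34 in young and 4.70, 4.97 and 5.23 in aged kidneys (-1.34, SE 0.15, adjusted p = 0.000647). Cyc1, which passes the electron to cytochrome c, changed by -1.28 (SE 0.17), and the core protein Uqcrc1 by -1.07. All 9 complex III genes were called lower.

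In complex IV, 10 of the 12 genes tested were called lower. The broadly expressed subunits Cox5a, Cox6a1, Cox6b1, Cox7b and Cox8a changed by -1.08, -0.83, -1.07, -1.06 and -1.0, and Ndufa4, first counted to complex I and now placed with complex IV, by -1.14. All 17 genes of complex V were called lower. The catalytic head of the ATP synthase was represented by Atp5a1, with levels of 8.29, 8.32 and 8.52 in young and 7.21, 7.41 and 7.59 in aged kidneys (-0.98), and by Atp5b (-0.92). The 3 genes that encode the same c ring protein changed by -1.13 (Atp5g1), -0.74 (Atp5g2) and -0.93 (Atp5g3). Among the genes of complex V the fall was smallest for Atp5g2.

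**Figure D2:**
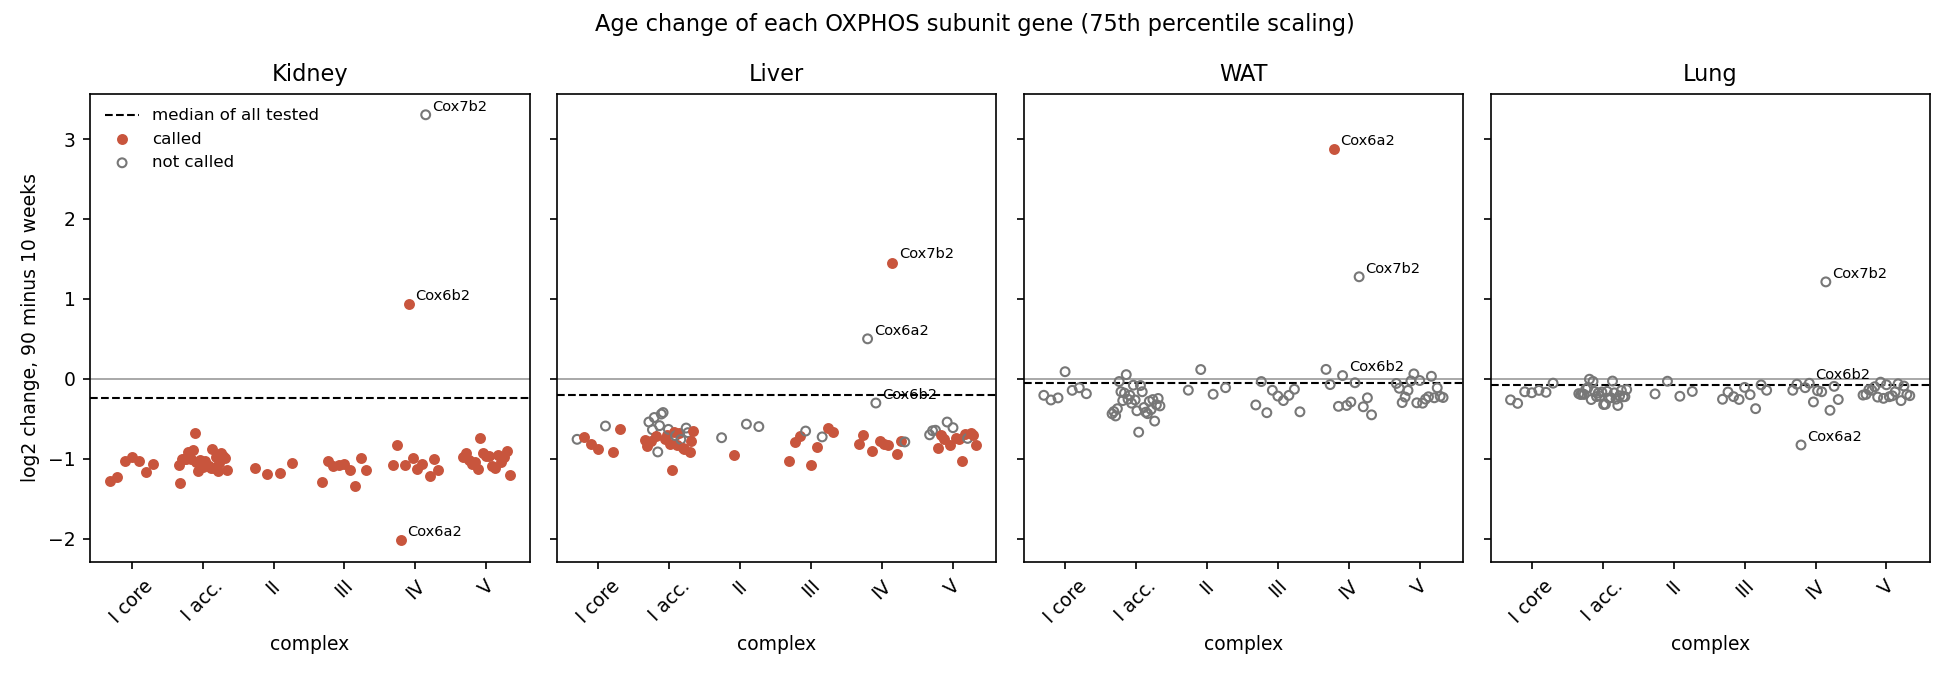
Log2 change (90 minus 10 weeks, 75th percentile scaling) of each OXPHOS subunit gene tested, by complex, in the 4 tissues. Each point is a gene, filled where it was called and open where it was not, and the dashed line is the median over all genes tested in the tissue. In the kidney 75 points lie below 0 and are called, in the liver 75 lie below 0 and 48 of them are called, and in lung and WAT none is called but Cox6a2 in WAT, at 2.88.

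Cell type markers moved in the same kidneys. Of 8 markers of the renal tubule 7 were called lower, with a median of -1.18 (-0.79 under spike-in scaling), and their summed level, in multiples of the array's 75th percentile, fell from a range of 1463 to 1714 in young to 632 to 982 in aged mice. All 11 immune markers on the array were called higher (median 3.61), and their sum was 24.7 to 27.6 in young and 137 to 210 in aged mice. The 6 fibroblast markers were called higher as well (median 3.0), with a sum of 15.7 to 18.4 in young and 78.4 to 108 in aged mice. None of these 3 lists had a marker that was below background on every array. The part of these shifts in the change of the subunit genes was not tested, and in RNA of whole tissue fewer cells of a type and less RNA per cell cannot be told apart.

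Stretches of promoter are shown for 4 of the genes, 3 that fell in the kidney and Cox6b2, which rose there, because nuclear respiratory factor 1 (NRF1) and the ETS factor GABP are known as regulators of OXPHOS genes. Each stretch is the 250 bases before the gene's start in RefSeq, on the assembly GRCm38.p6, read 5′ to 3′ in the direction of the gene. The array was designed on the older build mm9, whose positions differ. Capitals mark the letters GCATGCGC or its reverse complement GCGCATGC, the core of the NRF1 motif, and the letters CCGGAAG or the reverse complement CTTCCGG, the core of the ETS motif. The stretches lie at chr4:140961021-140961270 on the forward strand (Sdhb), and on the reverse strand at chr5:115348959-115349208 (Cox6a1), chr7:30626115-30626364 (Cox6b1) and chr7:4753095-4753344 (Cox6b2).
Sdhb: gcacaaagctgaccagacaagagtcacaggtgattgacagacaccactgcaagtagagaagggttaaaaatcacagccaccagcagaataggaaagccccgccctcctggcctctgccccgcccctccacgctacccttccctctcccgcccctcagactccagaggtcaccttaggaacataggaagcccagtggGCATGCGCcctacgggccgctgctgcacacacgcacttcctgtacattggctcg
Cox6a1: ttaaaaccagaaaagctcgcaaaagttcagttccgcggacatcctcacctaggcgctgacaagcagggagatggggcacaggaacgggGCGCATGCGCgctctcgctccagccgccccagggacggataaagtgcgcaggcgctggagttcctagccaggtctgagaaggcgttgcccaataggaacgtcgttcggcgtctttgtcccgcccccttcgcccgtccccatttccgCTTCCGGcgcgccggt
Cox6b1: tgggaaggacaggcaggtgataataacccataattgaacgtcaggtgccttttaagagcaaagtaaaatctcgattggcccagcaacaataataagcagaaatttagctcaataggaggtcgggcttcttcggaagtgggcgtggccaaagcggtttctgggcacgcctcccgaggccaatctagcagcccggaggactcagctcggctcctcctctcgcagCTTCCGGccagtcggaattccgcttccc
Cox6b2: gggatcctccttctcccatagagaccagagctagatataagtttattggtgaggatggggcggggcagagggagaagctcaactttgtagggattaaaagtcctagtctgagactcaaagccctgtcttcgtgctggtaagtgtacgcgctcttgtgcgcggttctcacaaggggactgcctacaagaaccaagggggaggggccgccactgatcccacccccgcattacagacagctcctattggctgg
Sdhb has the NRF1 letters, Cox6a1 has them on both strands, overlapping, as well as the ETS letters next to the start, Cox6b1 has the ETS letters, and Cox6b2 has neither in this window. Most promoters of the subunit genes also had neither, those of genes that fell in the kidney among them. The 4 stretches are examples and do not set falling genes apart from Cox6b2.

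RefSeq held 69 promoter entries for 64 of the 78 genes, among 32851 for all genes, and both motifs were searched on both strands. The NRF1 letters stood in 8 of the 69 promoters (11.6%), in 2.26% of all promoters and in 2.93% of the 21263 promoters of protein-coding genes. The ETS letters stood in 12 (17.4%), in 6.91% of all and in 8.98% of the protein-coding promoters. The letters AAGGTCA, the core of the motif of estrogen-related receptors, stood in 5 of the promoters (7.25%, against 4.08% of all and 3.59% of the protein-coding promoters). GGGCGG, the Sp1 core, stood in 34.8%, against 32.7% of all but 42.6% of the protein-coding promoters. The median kidney change was -0.97 for the 8 genes with the NRF1 letters and -1.05 for those without, and -1.01 and -1.05 for the ETS letters. The medians with and without the letters lay close together and were not tested against each other, and a match describes the sequence, not binding.

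In the liver of aged mice, 48 of the 77 genes were called lower and 1, Cox7b2, higher, where 17.0% of all 27906 genes tested were called lower and 10.5% higher. Among the 2928 genes of similar level 19.0% were called lower. The median change was -0.73, against -0.20 over all genes and -0.27 over the genes of similar level, and 75 of the 77 changes lay below 0. For 71 genes the aged mice were all below the young mice, as was so for 33.1% of all genes. The quartiles were -0.83 and -0.65, and 4 genes were at least 2-fold lower. The calls came from every complex: 5 of 7 core and 16 of 28 accessory subunits of complex I, 1 of 4 in complex II, 7 of 9 in complex III, 8 of 12 in complex IV and 11 of 17 in complex V. All 48 were also among the 75 called lower in the kidney, which makes the shared genes 100% of the liver's calls and 64.0% of the kidney's.

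The liver calls depended on the scaling and on single mice. Under spike-in scaling no subunit gene was called lower by limma (4.03% of all genes were). In that direction 19 of the 77 had an unadjusted p under 0.05, as did 3371 of all 27906 genes. The median of -0.67 was close to that under the percentile scaling. Cox7b2 was the 1 gene called higher under spike-in scaling, where 8.54% of all genes were. Under the percentile scaling the number called lower was 0 without young mouse 1 or young mouse 2 and 12 without young mouse 3. It was 3 without aged mouse 1, 8 without aged mouse 2 and 69 without aged mouse 4. The share over all genes was not counted in these runs. A shift in all calls therefore cannot be told from a shift in the subunit genes. Under the percentile scaling the median stayed between -0.91 and -0.61 with any 1 mouse left out. Under spike-in scaling it ranged more widely, from -0.86 without aged mouse 1 to -0.35 without aged mouse 2.

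Ndufb3, an accessory subunit of complex I, had levels of 5.51, 5.63 and 5.27 in young and 4.28, 4.0 and 4.73 in aged livers (-1.14, SE 0.23, adjusted p = 0.015). Uqcrc1 had levels of 6.43, 6.45 and 6.24 in young and 5.26, 4.92 and 5.70 in aged livers (-1.08, SE 0.23, adjusted p = 0.018). For both, aged mouse 2 was lowest and aged mouse 4 nearest to the young mice. Cyc1 (-1.03, adjusted p = 0.037) and Atp5k, a small membrane subunit of ATP synthase (-1.03, adjusted p = 0.02), were also at least 2-fold lower. Other called genes were Sdhb (-0.95), Ndufv1 (-0.91), Cox6b1 (-0.90), Ndufs7 (-0.87), Cox7b (-0.83), Cox5a (-0.82), Cox8a (-0.77) and Cox6a1 (-0.70). Ndufs1 (-0.76, adjusted p = 0.063), Sdha (-0.74, adjusted p = 0.073), Uqcrfs1 (-0.72, adjusted p = 0.061), Atp5a1 (-0.70, adjusted p = 0.061) and Atp5b (-0.65, adjusted p = 0.068) lay just outside the threshold, with values inside the range of the called genes.

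Beside these livers 9 of 11 immune markers were called higher (median 2.11), with a summed level of 46.6 to 64.2 in young and 194 to 250 in aged mice. Of 6 fibroblast markers 5 were called higher (median 1.15, sum 56.4 to 71.3 in young and 138 to 157 in aged mice). Of 8 hepatocyte markers 2 were called lower (median -0.48), and their sum was 4984 to 5804 in young and 3549 to 4680 in aged mice. Their part in the change of the subunit genes was not tested.

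In the lung no subunit gene was called in either direction by limma, where 2.89% of all 30327 genes were called lower and 2.72% higher. The lowest adjusted p was 0.0798, of Cox7c, and 15 of the 77 genes had an unadjusted p under 0.05, all of them lower. Of all 30327 genes, 5377 were lower at an unadjusted p under 0.05, a similar share. The methods' t-test, unpaired and two-tailed, gave 26 lower genes at an unadjusted p under 0.05 and 0 after adjustment, and its share over all genes was not counted. Of the 77 changes 76 were below 0, with a median of -0.18 against -0.08 over all genes, and for 41 genes the aged mice were all below the young mice (24.2% of all genes). Ndufs1 had levels of 3.49, 3.42 and 3.28 in young and 3.10, 3.06 and 3.25 in aged lungs (-0.26, SE 0.10, adjusted p = 0.18). Sdhb, at 5.33, 5.22 and 5.11 in young and 5.06, 5.32 and 5.20 in aged lungs, overlapped between the ages (-0.03).

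In WAT 1 gene, Cox6a2, was called higher (2.01% of all 30063 genes were) and none was called lower by limma (0.579% of all genes were). In the lower direction 7 of the 77 had an unadjusted p under 0.05, and 2833 of all 30063 genes did, a similar share. The methods' t-test gave 20 lower genes at an unadjusted p under 0.05 and 0 after adjustment, and its share over all genes was not counted. The median change was -0.23, against -0.05 over all genes, and 68 of 77 changes lay below 0. For 23 genes the aged mice were all below the young mice, where 15.0% of all genes were so. The greatest uncalled fall was that of Ndufb3 at -0.67 (adjusted p = 0.12), with levels of 5.17, 5.44 and 5.22 in young and 4.55, 4.79 and 4.49 in aged mice. For Sdhb aged mouse 3, at 6.42, lay above all young mice (5.90, 6.29 and 6.07).

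The genes that departed from the common pattern were isoforms of complex IV subunits. Cox6a2, the isoform of subunit 6a known from heart and skeletal muscle, was the only subunit gene called in opposite directions in 2 tissues. In the kidney its levels were 0.73, 0.62 and 0.99 in young and -1.13, -1.22 and -1.36 in aged mice (-2.02, SE 0.12, adjusted p = 0.000101), a 4.05-fold fall that was the greatest of all subunit genes there. In WAT they were -3.89, -3.47 and -3.21 in young and -0.13, -1.18 and -0.63 in aged mice (2.88, SE 0.33, adjusted p = 0.015), a 7.35-fold rise. The groups were far apart in both tissues. In the lung, at 4.56, 4.35 and 3.55 in young and 2.26, 3.84 and 3.89 in aged mice, they overlapped (-0.83, adjusted p = 0.34), as they did in the liver (0.50, adjusted p = 0.38). Its partner Cox6a1, the isoform found in most tissues, changed by -0.83 in the kidney, -0.70 in the liver, -0.07 in the lung and -0.07 in WAT.

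The rise of Cox6a2 in WAT was as large under spike-in scaling (2.89, adjusted p = 0.015, where 1.92% of all genes were called higher). It was not called without young mouse 2 or aged mouse 3 (adjusted p = 0.063 in both cases), with changes of 2.91 and 2.87. Of the muscle markers 0 of 10 tested were called in WAT by limma, and their summed level was 9.66 to 10.8 in young and 3.28 to 11 in aged WAT. Of the genes known from brown fat, the uncoupling protein Ucp1 did not reach the well-above-background call in young mice. Its levels were -0.34, -0.62 and -1.43 in the aged mice. Cidea changed by 2.09 (adjusted p = 0.077). Cox7a1 (-0.37) and Cox8b (0.74), which are also known from brown fat and muscle, were not called. In the gene table the span of Cox6a2 overlaps that of Itgad, an integrin subunit of macrophages. Itgad was not well above background in young WAT and had levels of -1.40, -2.98 and -3.28 in aged WAT. Ucp1 and Itgad entered the test only through the aged WAT samples, so no p is given for them. Of 11 immune markers 5 were called higher in WAT, with a sum of 44.7 to 139 in young and 315 to 583 in aged mice. The part of these genes in the Cox6a2 value was not tested.

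In the kidney the fall of Cox6a2 stood beside muscle markers of which 4 were called higher and 2 lower among 9 tested, and Ryr2, Myh4, Myh1 and Ckm were not well above background on any kidney array. Their summed level was 2.07 to 2.17 in young and 2.65 to 3.74 in aged mice. In the lung the sum of the muscle markers was 104 to 300 in young and 17.1 to 156 in aged mice, and Cox7a1 (-1.93, adjusted p = 0.11) and Cox8b (-1.75, adjusted p = 0.15) lay lower along with Cox6a2 without being called. Of 5 tested markers of brown adipocytes, which include Cox7a1 and Cox8b, all lay below 0 and 0 were called by limma (lowest adjusted p = 0.081, for Dio2), and Ucp1 was well above background in 2 young lungs and in no aged lung. Of 8 adipocyte markers 2 were called lower, with a sum of 57.7 to 105 in young and 5.49 to 16 in aged lungs. Of 4 red blood cell markers tested 1 was called higher, with a sum of 39.5 to 216 in young and 468 to 741 in aged lungs. All 7 hepatocyte markers tested lay above 0 (median 2.95) and 0 were called by limma. Their sum was 0.55 to 8.59 in young and 1.66 to 236 in aged lungs. All 6 fibroblast markers lay below 0 (median -1.67) and 0 were called, with a sum of 104 to 134 in young and 41.5 to 64.4 in aged lungs. The part of these cell types in the lung values was not tested.

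Cox6b2, the testis isoform of subunit 6b, was the 1 subunit gene called higher in the kidney. Its levels were 0.37, 0.17 and 0.13 in young and 1.27, 1.13 and 1.07 in aged mice (0.93, SE 0.10, adjusted p = 0.000625), and the change was 1.32 under spike-in scaling. Every aged kidney lay above every young one, while Cox6b1, the common isoform, went from 4.96, 4.94 and 5.01 to 3.71, 3.88 and 4.10 in the same mice. In the liver, lung and WAT Cox6b2 changed by -0.30, -0.05 and 0.04, with overlap in each. Cox7b2, the testis isoform of subunit 7b, was called higher in the liver, from -4.82, -4.23 and -4.26 to -2.70, -2.90 and -3.35 (1.46, SE 0.25, adjusted p = 0.0097), well above background in 2 of the 3 young and all aged mice. In the kidney its mean rose by 3.30 (SE 2.28, adjusted p = 0.25) through 1 aged mouse at 5.08, the other aged mice being at -3.09 and -3.59 and the young at -3.11, -4.10 and -4.31.

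Cox8c, a further testis isoform, was well above background in 1 young and 1 aged WAT sample and in no sample of liver, lung or kidney. Its WAT levels were -0.73, -7.74 and -6.10 in young and -7.56, -4.17 and -7.62 in aged mice. Cox7b2 was at -3.27, -7.71 and -6.91 in the young WAT samples and at -4.97, -4.80 and -4.29 in the aged ones. Leaving out young mouse 1 raised its change from 1.28 to 2.62. The young levels then left are as low as those of Cox8c that were not well above background, so no p is given. The summed level of 8 genes of male germ cells, a list chosen after these values were seen, was 6.91, -0.63 and 1.29 (log2) in the young and -1.01, 2.94 and -1.10 in the aged WAT samples. The 2 samples with Cox8c above background are those with the highest sums, and young mouse 1 also had the highest Atp5g1, at 5.88 against 4.93 and 4.63. The part of testis RNA in these samples was not tested.

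**Figure D3:**
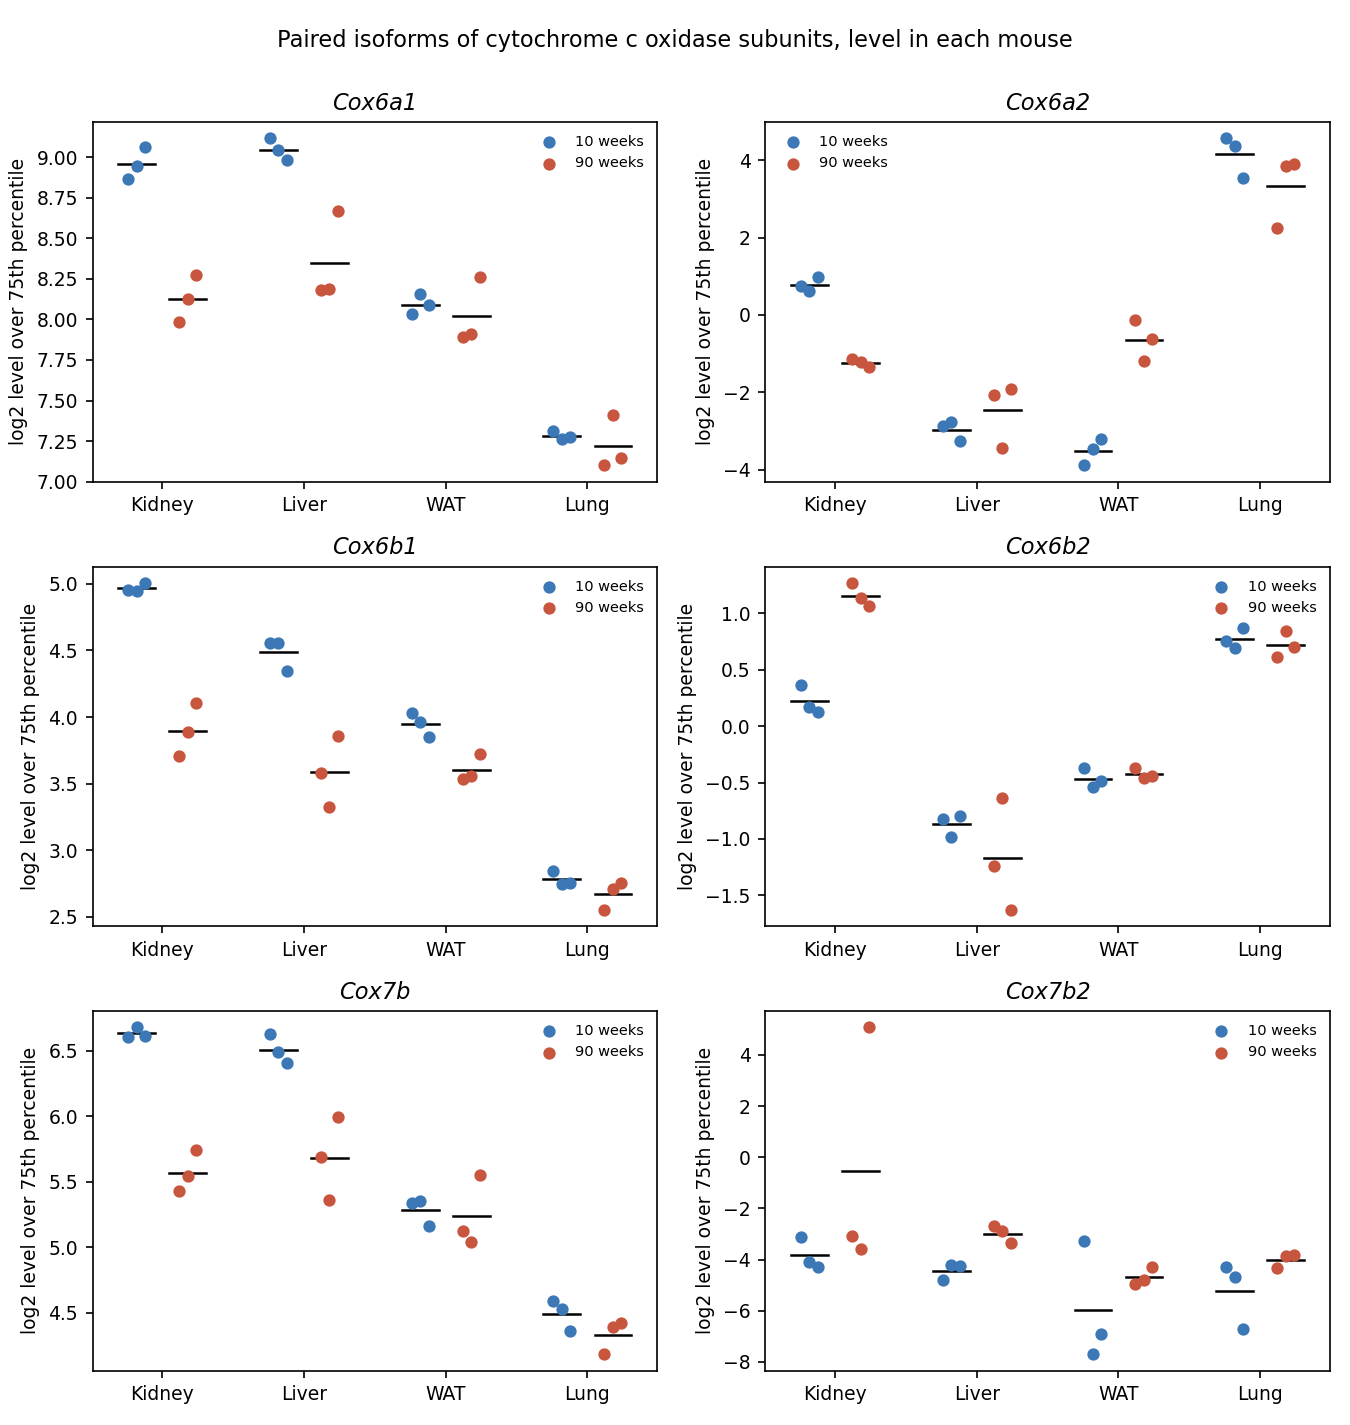
Log2 level over the array's 75th percentile of paired isoforms of complex IV subunits in each mouse, by tissue and age. Points are mice, black lines are means of 3 mice, and the vertical axes differ between panels and are not to be compared between genes. The isoforms Cox6a1 and Cox6b1 fall in kidney and liver, Cox6a2 falls in the kidney and rises in WAT, and Cox6b2 rises in the kidney.

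The difference between tissues was tested directly, as the age change in 1 tissue minus the mean age change in the other 3, over 25785 genes. The fall in the kidney was greater than elsewhere for 69 of the 77 genes, where 14.6% of all genes were called in that direction, and Cox6b2 alone differed the other way (7.61% of all genes). The median of these differences was -0.67, against -0.14 over all genes. Lung and WAT lay above the other tissues for 26 and 18 genes (7.19% and 9.56% of all genes), and the liver lay below them for 4 genes (8.14% of all genes). By pairs of tissues, the change in the lung was higher than in the kidney for 70 genes (15.0% of all genes), and the kidney was lower than WAT for 65 (17.7% of all genes). Liver and kidney differed for 2 genes with the liver higher (5.09% of all genes) and 1 with the liver lower (4.31% of all genes). The liver lay below the lung for 19 genes (10.2% of all genes) and below WAT for 21 (12.5% of all genes). These pairs share samples with one another.

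Under spike-in scaling the differences between tissues were mostly no longer called. In the kidney 1 gene was then lower than elsewhere, Cox6a2 (-2.49, adjusted p = 0.0042), where 1.18% of all genes were, and 1 was higher, Cox6b2 (1.42, adjusted p = 0.000148), where 9.77% of all genes were. The median difference in the kidney was -0.28, against 0.24 over all genes. In WAT Cox6a2 was still called (3.55, adjusted p = 0.000703), and in the lung and the liver no subunit gene was called by limma.

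Other mitochondrial genes that are not OXPHOS subunits were lower in the same kidneys. Of complex I assembly factors 15 of 15 tested were called lower (median -0.97), among them Acad9 (-1.46) and Ndufaf4 (-1.26). Of the assembly factors of the other complexes 32 of 32 were (median -0.82), with Taco1 (-1.23), a translation activator of a complex IV subunit, and Cox15 (-1.20), which makes its heme. All 17 genes of the tricarboxylic acid cycle and pyruvate dehydrogenase were called lower (median -1.07), among them Sucla2 (-1.37) and Idh3b (-1.29). All 21 genes of membrane, import and carrier proteins were (median -0.90), with the chaperonins Hspd1 (-1.30) and Hspe1 (-1.20). Of 78 mitochondrial ribosomal proteins 75 were called lower (median -0.81). These shares stand beside the 42.6% of all kidney genes called lower. Under spike-in scaling the numbers were 13, 18, 16, 12 and 43, with medians of -0.58, -0.43, -0.68, -0.52 and -0.42. Of all kidney genes 14.3% were then called lower, with a median of 0.15 over all genes.

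In the liver the same lists had 7 of 15, 8 of 32, 6 of 17, 8 of 21 and 35 of 78 genes called lower, with medians between -0.71 and -0.51, beside 17.0% of all liver genes. Under spike-in scaling, where 4.03% of all liver genes were called lower, these calls were lost but for 1 assembly factor, Sco2 (-1.14, adjusted p = 0.043). Sco2, a copper carrier for complex IV (-1.20), Taco1 (-1.15) and Ndufaf1 (-1.13) had the greatest called falls among the assembly factors. In the lung Coa5 (0.42) was called higher and Sucla2 (-0.53) and Mrpl35 (-0.64) lower, and in WAT none of these genes was called by limma. Of 8 tested subunits and isoforms that the choice by symbol left out, with cytochrome c among them, 6 were called lower and 1 higher in the kidney, and 3 lower and 1 higher in the liver. Cox4i1 of complex IV changed by -0.97 in the kidney and -0.68 in the liver (adjusted p = 0.039), and the electron carrier cytochrome c (Cycs) by -1.09 and -0.84. The brown fat and muscle isoform Cox8b, the 1 called higher in the liver, changed there by 1.93. It was well above background in every aged liver but in no young one. Since it entered the test only through the aged livers, no p is given and its call there is not read as a result under either scaling. In the kidney Cox8b, well above background in 1 young mouse and in every aged one, lay at 1.31 and was not called. Cox7a1 was lower there (-1.34, adjusted p = 0.000593). Under spike-in scaling 4 were called lower (14.3% of all genes) and 2 higher (29.7% of all genes) in the kidney, the 2 being Ndufa4l2 and Cox8b. In the liver 0 were called lower by limma (4.03% of all genes) and 1 higher (8.54% of all genes), again Cox8b (2.0). Ndufa4l2, a relative of Ndufa4 known from hypoxia, went the other way in the kidney (0.82, adjusted p = 0.0031) and was lower in the lung (-0.95, adjusted p = 0.033).

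**Figure D4:**
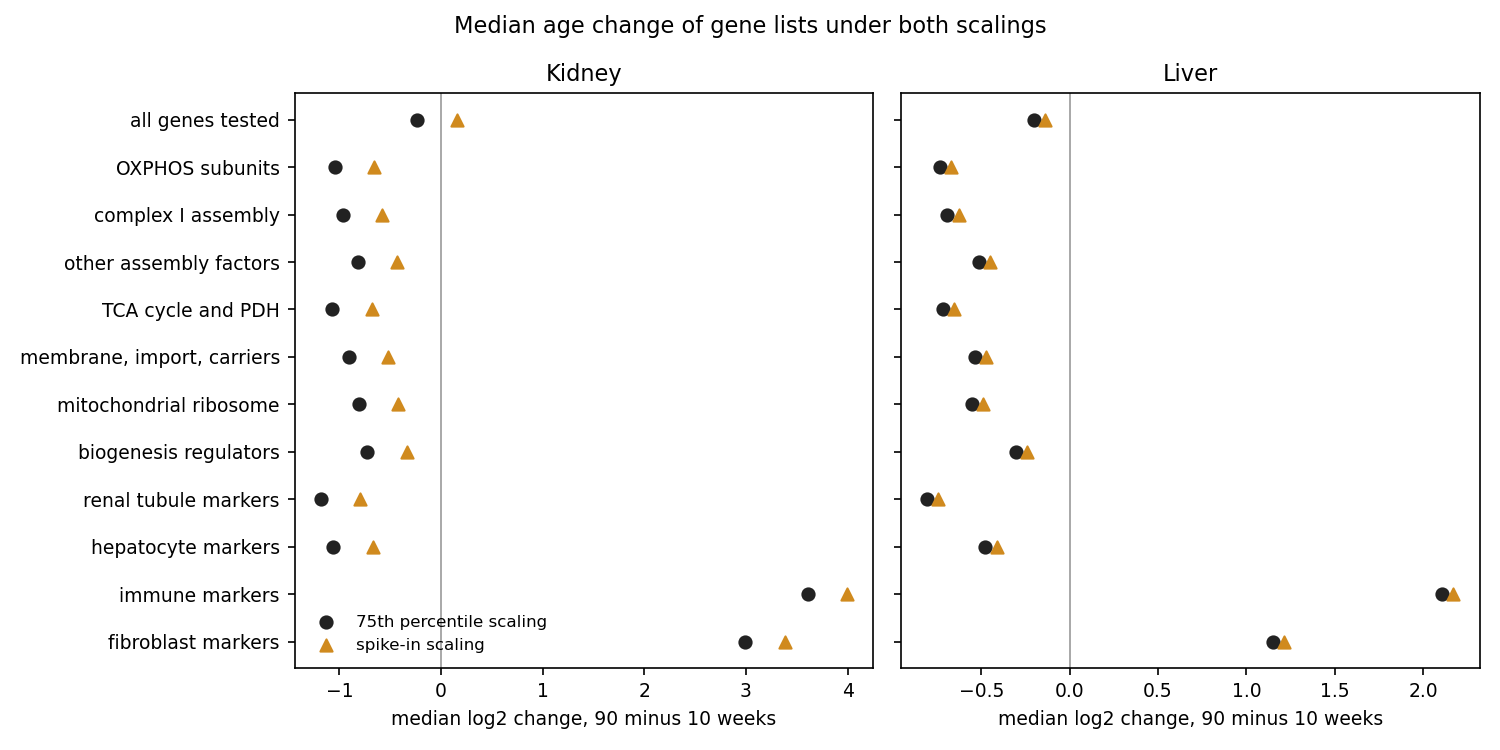
Median log2 change (90 minus 10 weeks) of all genes tested, the OXPHOS subunit genes, other mitochondrial lists and cell type marker lists in kidney and liver, under 75th percentile scaling (circles) and spike-in scaling (triangles). Each symbol is the median of a list, and the horizontal axes differ between the panels. In the kidney the subunit genes lie at -1.04 and -0.66 under the 2 scalings, where all genes lie at -0.23 and 0.15.

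Among 18 regulators of mitochondrial biogenesis, 13 were called lower and 1 higher in the kidney (median -0.73), where 42.6% of all genes were called lower and 20.6% higher. The coactivator Ppargc1a changed by -0.80 (adjusted p = 0.0035), its relative Ppargc1b by -1.03, the receptor Esrra by -0.94, Esrrb by -1.66 and Tfam, which packs and transcribes mitochondrial DNA, by -0.80. Gabpa, the DNA-binding subunit of GABP, changed by -0.49 and Pprc1 by 0.78, both called, while Nrf1 was not called (0.20, adjusted p = 0.13). Under spike-in scaling 6 were called lower and 3 higher, where 14.3% of all genes were called lower and 29.7% higher. Ppargc1a was then at -0.42 (adjusted p = 0.058), Gabpa at -0.11 and Nrf1 at 0.59 (adjusted p = 0.014), so that the calls of all 3 turned on the scaling. In the liver 1 regulator was called, Polg (-0.51), the polymerase of mitochondrial DNA, where 17.0% of all genes were called lower. Ppargc1a lay at 0.83 there (adjusted p = 0.068), Nrf1 at 0.34, Gabpa at -0.25, Esrra at 0.01 and Tfam at -0.35. In the lung these 5 lay between -0.53 and 0.07 and in WAT between -0.12 and 0.73, with none called by limma.

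A second look at the same genes came from their dimmer probes, which had no part in the values above but measure the same RNA on the same arrays. For 17 genes there were 19 such probes. In the kidney 19 of them were called lower, in the liver 16, and in lung and WAT none by limma. These calls were adjusted over all probes, and the share of all probes called was not counted. Of all genes, 42.6% in the kidney and 17.0% in the liver were called lower. No dimmer probe had the opposite sign to the brightest probe in kidney or liver, while 1 did in the lung and 2 in WAT. The dimmer probe gave the lower value for 16 of 19 in the kidney (median difference -0.09) and 15 of 19 in the liver (-0.12), and the widest gap was 0.33 in the kidney, for Atp5b. The spans of 25 of the 78 genes overlap another gene in the RefSeq annotation, counted on either strand and without regard to the probe's position. Whether a probe's signal there holds both was not tested.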

How the data were processed

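The authors isolated total RNA with an RNeasy kit, labelled it with Cy3 and hybridised it to 24 arrays. Per the file headers, the deposited intensity values are processed signals, background-subtracted by Agilent Feature Extraction 11.0.1.1 and not scaled between arrays, from a mouse design on build mm9 (the methods name a human kit). The 1841 spots with an outlier mark were dropped. Probes were named through RefSeq accessions (58.3% of 56605). log2 signals were centred on each array's 75th percentile or its spike-in median. Probes that 3 or more of the 6 arrays of a tissue showed well above background entered limma 3.58.1 (lmFit and eBayes, R 4.3.3) in each tissue, with Benjamini-Hochberg adjustment over all genes. Scripts were tested on simulated data, and figures drawn with Python 3.11.15 and matplotlib 3.10.9. The members and lists were chosen with earlier results of these data known. Genes were named by a rule: fixed subunits of each complex, isoforms, the 5 greatest changes called per tissue and direction, genes called in opposite directions, the 3 greatest differences between tissues, up to 4 called genes per further list, and 5 regulators; other names, such as Cox7c, Ndufa7, Atp5g1 in WAT, Itgad and Ucp1, were chosen after their values were seen. Between 58.6% and 71.1% of probes were well above background, and arrays of a group correlated between 0.942 and 0.995. The small number of arrays limits the precision, and an exact permutation test of 3 against 3 mice cannot go below 0.1. Alternatives tried were normexp, quantile and median scaling, no dim-probe filter, averaged probes, 1 fit of all arrays, the methods' t-test, a replicate block, and leaving out each mouse. The spike-in scaling with a mouse left out, the order of tissues under spike-in scaling, the contrasts between pairs of tissues and the germ cell list were added after the data were seen.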

Additional observations from a re-analysis of the deposited data

Results flagged for a closer look

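The age change differed between tissues in a limma contrast of each tissue against the mean of the other 3, and these are the subunit genes singled out by it. The contrast was called for 70 genes in the kidney, 26 in the lung, 18 in WAT and 4 in the liver. In the kidney the greatest differences were those of Cox6a2 (-2.87, adjusted p = 0.000486), Uqcrfs1 (-0.91, adjusted p = 0.014) and Sdhb (-0.90, adjusted p = 0.0061), and Cox6b2 differed upwards (1.04, adjusted p = 0.00101). In WAT they were Cox6a2 (3.66, adjusted p = 0.000167), Sdhb (0.84, adjusted p = 0.015) and Cox5a (0.80, adjusted p = 0.016). In the lung they were Uqcrc1 (0.68), Cox6b1 (0.66) and Ndufa10 (0.65), and in the liver Uqcrc1 (-0.62), Cox6b2 (-0.61) and Atp5k (-0.53). Under spike-in scaling the differences of Cox6a2 in kidney and WAT and of Cox6b2 in the kidney kept their calls.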

How the results depend on the processing

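The kidney counts of 75 lower and 1 higher were within 1.5 times under every alternative run, while the kidney median moved to -0.66 under spike-in scaling and -0.50 under quantile normalization. Leaving out 1 mouse gave 68 (under spike-in scaling) to 75 lower, 1 higher and, under the percentile scaling, a median of -1.13 to -0.97. In the liver the number called lower was 0 under spike-in scaling, 11 under quantile normalization, 74 with all 24 arrays in 1 fit and 3 by the methods' t-test, with 0 to 69 when 1 mouse was left out. The number called higher there was 0 in the fit of all arrays and by the t-test, and 1 to 2 with 1 mouse left out. The liver median was -0.46 under quantile normalization. With 1 mouse left out it was -0.91 to -0.61 under the percentile scaling and -0.86 to -0.35 under spike-in scaling. In the lung the counts were 0 with any mouse left out and the median was -0.22 to -0.13. In WAT 7 genes were called lower in the fit of all arrays, Cox6a2 was not called by the t-test (0 higher), and leaving out 1 mouse gave 0 to 2 higher and a median of -0.31 to -0.15. Among these alternatives the calls over all genes were counted for the spike-in runs only, and the cause of these shifts was not tested.

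The differences between tissues numbered, for the kidney, 2 under spike-in scaling and 9 under quantile normalization. They numbered 0 and 2 for the lung, 1 and 2 for WAT and 0 and 1 for the liver under the same scalings. With normexp the numbers were 11 for WAT and 2 for the liver, and without the filter on dim probes 15 for the lung, 8 for WAT and 0 for the liver. Leaving out 1 mouse gave 39 to 70 for the kidney (39 without aged mouse 1), 6 to 24 for the lung, 6 to 21 for WAT and 0 to 24 for the liver.

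Young and aged mice with the same number did not deviate together (correlations of -0.17 to 0.18), so the numbers were not taken as pairs. With the replicate block the liver had 0 genes called lower, 0 higher and a median of -1.0, WAT had 0 called higher, and the differences numbered 15 for the liver, 41 for the lung and 35 for WAT.

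Named genes that changed sign were uncalled and near 0. With 1 mouse left out their changes ranged, in the lung, from -0.091 to 0.038 for Sdhb and from -0.088 to 0.016 for Atp5g2. In WAT they ranged from -0.28 to 0.34 for Atp5g1, -0.14 to 0.043 for Atp5a1, -0.27 to 0.00833 for Atp5b, -0.20 to 0.051 for Cox7b, -0.21 to 0.012 for Ndufv1, -0.32 to 0.014 for Sdha, -0.080 to 0.24 for Cox5a, -0.011 to 0.17 for Ndufs7 and -0.021 to 0.15 for Atp5g2, which was at -0.047 under quantile normalization.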
